A study of Mus musculus with 6 samples.

Results

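The ectodysplasin genes described here are Eda, which encodes the ligand, its receptors Edar and Eda2r, the adaptor Edaradd, and Tnfrsf19, a related receptor also called Troy. They were taken by gene symbol from the array annotation: all 5 were found among 19505 measured genes, each with 1 probe set. Mouse embryonic salivary glands, collected at a stage the labels write as T13, were cultured for 72 hours with TGF-β1, a secreted growth factor, or with nothing added, and 3 arrays were made per group. The study asked how TGF-β1 acts on the glands. The sources used here state neither the dose of TGF-β1 nor the gland type. They do not say that replicates came from separate animals or cultures, so a p-value reflects the spread among these 6 arrays alone, and that spread may be technical. Glands were whole tissue, in which fewer cells of a type and less RNA per cell cannot be told apart.

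Ectodysplasin is a membrane-bound member of the tumour necrosis factor (TNF) family that is released by furin cleavage. One splice form binds Edar and another binds Eda2r. Edar recruits Edaradd, which couples it to TRAF6 and the kinase TAK1 and so to the transcription factor NF-κB. In mouse salivary glands Eda is made mainly by mesenchyme and Edar by epithelium, and loss of either leaves a small gland with few branches. Eda2r signals to NF-κB too and is also known as a target gene of p53.

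Values are on the log2 scale, per probe set and as deposited, and a difference is the TGF-β1 mean minus the control mean in log2 units. Control 3 stood apart: its correlation with the other 5 arrays over all genes was 0.550 to 0.601, TGF-β1 3 correlated with the remaining 4 at 0.948 to 0.953, and these 4 with each other at 0.974 to 0.990. The median of 10 general genes such as Actb and Gapdh was -3.93 in control 3 relative to the mean of controls 1 and 2 (log2 units). Its interquartile range over all probe sets was 2.05, against 3.17 to 3.26 on the other arrays. The 5 genes are therefore described with and without control 3, and calls in the gene lists are given beside those without it. On the 5 other arrays, 10 of 12 salivary epithelial markers and all 8 mesenchymal markers lay above the array's median, against 3 of 5 neuron and Schwann cell, 2 of 5 immune, 1 of 6 skeletal muscle, 1 of 5 epidermal and 0 of 6 endothelial markers.

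All 5 genes were lower on average in the TGF-β1 arrays than in the controls. Eda2r and Tnfrsf19 passed the limma test in the array-weighted fit. Both also passed unweighted when control 3 and TGF-β1 3 were dropped, which left 2 arrays per group. TGF-β1 3 stood apart far less than control 3, and dropping arrays because they disagree can make p-values too small. Neither gene passed unweighted with all 6 arrays, or with control 3 alone dropped (limma adjusted p = 0.211 for Eda2r and 0.338 for Tnfrsf19). In 3 of the 5 genes, Edar, Edaradd and Tnfrsf19, every TGF-β1 array lay below every control, as did 5.78% of all genes. Eda2r joined them once control 3 was left out, giving 4 of 5, against 12.3% of all genes. A mean difference below 0 was itself common, at 59.5% of genes, so the sign alone does not set the 5 apart. The median difference over all genes was -0.14, and 0.01 without control 3.

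**Figure D1:**
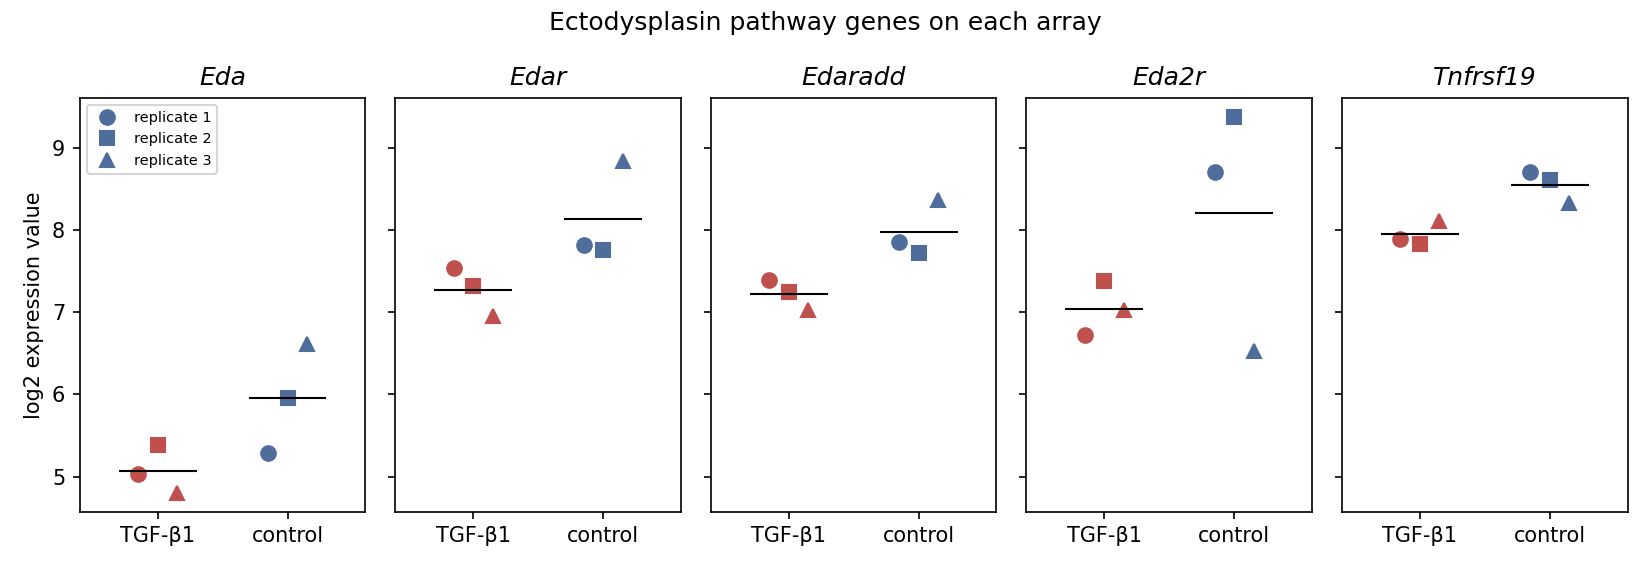
Log2 expression value (y axis) of each of the 5 genes on the 3 TGF-β1 arrays (red) and the 3 control arrays (blue), with a symbol per replicate and a line at the group mean; levels of different genes are not comparable. Control 3 (blue triangle) is the highest control for Eda, Edar and Edaradd and, at 6.53, the lowest of all arrays for Eda2r.

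The ligand gene Eda (Entrez gene 13607, chromosome X, 99975606 to 100400760 in GRCm38.p6) was at 5.04, 5.39 and 4.80 in the TGF-β1 arrays and at 5.29, 5.96 and 6.61 in controls 1, 2 and 3. The groups overlapped, TGF-β1 2 lying above control 1. The TGF-β1 arrays averaged 5.08 ± 0.30 and the controls 5.95 ± 0.66 (SD, n = 3 each). Eda was dim: it lay below the median probe set on all 6 arrays and below the lower quartile on 2 of them. Without control 3 the difference was -0.55 ± 0.28 (SE).

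Edar (Entrez gene 13608, chromosome 10, 58600780 to 58675696), the epithelial receptor, was at 7.54, 7.31 and 6.96 in the TGF-β1 arrays and at 7.82, 7.76 and 8.84 in the controls. The groups did not overlap, and the gap between the highest TGF-β1 array and the lowest control was 0.22. The TGF-β1 arrays averaged 7.27 ± 0.29 and the controls 8.14 ± 0.61 (SD, n = 3 each). Control 3 was 1.05 above the mean of controls 1 and 2, and without it the difference was -0.52.

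Edaradd (Entrez gene 171211, chromosome 13, 12471209 to 12520535), the adaptor that binds the death domain of Edar, followed the same pattern. It was at 7.39, 7.24 and 7.03 in the TGF-β1 arrays and at 7.85, 7.72 and 8.36 in the controls, with a gap of 0.33 between the groups. The TGF-β1 arrays averaged 7.22 ± 0.18 and the controls 7.98 ± 0.34 (SD, n = 3 each). For both Edar and Edaradd, TGF-β1 3 was the lowest array and control 3 the highest. Without control 3 the difference of Edaradd was -0.56 ± 0.18 (SE).

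Eda2r (Entrez gene 245527, chromosome X, 97333837 to 97377234) had the widest spread of the 5 genes, 2.65 log2 units over the 5 arrays without control 3. It was at 6.73, 7.38 and 7.02 in the TGF-β1 arrays and at 8.70, 9.37 and 6.53 in controls 1, 2 and 3. The TGF-β1 arrays thus lay at least 1.32 below controls 1 and 2, while control 3 lay below all of them. The TGF-β1 arrays averaged 7.04 ± 0.33 and the controls 8.20 ± 1.49 (SD, n = 3 each). With controls 1 and 2 alone, whose mean was 9.04, the level was 3.99-fold lower in the TGF-β1 arrays.

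Tnfrsf19 (Entrez gene 29820, chromosome 14, 60963834 to 61046855), an orphan receptor of the same TNF receptor branch, was at 7.89, 7.83 and 8.11 in the TGF-β1 arrays and at 8.70, 8.61 and 8.33 in the controls. The groups did not overlap, with a gap of 0.21 that grew to 0.49 without control 3. The TGF-β1 arrays averaged 7.94 ± 0.15 and the controls 8.55 ± 0.20 (SD, n = 3 each). It was the gene whose control 3 value lay nearest to controls 1 and 2, at 0.33 below their mean.

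None of the 5 passed in the unweighted limma fit of 6 arrays, which called 0 of 19505 genes (0%; 389 at an unadjusted p under 0.05). The difference was -0.88 ± 0.42 (SE) for Eda, -0.87 ± 0.41 for Edar, -0.76 ± 0.33 for Edaradd, -1.16 ± 0.71 for Eda2r and -0.60 ± 0.30 for Tnfrsf19, each with an adjusted p of 0.776. A two-sided exact permutation test of each gene alone gave p = 0.1 for Edar, Edaradd and Tnfrsf19, the smallest that 3 arrays against 3 allow, p = 0.2 for Eda and p = 0.4 for Eda2r.

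With array weights, by which limma estimates each array's reliability from all genes, the weight was 0.0338 for control 3 and 0.398 for TGF-β1 3, against 1.65 to 4.52 for the remaining 4 arrays. In that fit Eda2r fell by 2.22 ± 0.23 (SE, limma adjusted p = 4.29e-04) and Tnfrsf19 fell by 0.75 ± 0.13 (adjusted p = 0.00706). These 2 of 5 genes compare with 3.44% of all genes called lower in this fit. Eda differed by -0.64 ± 0.20 (adjusted p = 0.0778), Edaradd by -0.44 ± 0.14 (adjusted p = 0.0944) and Edar by -0.35 ± 0.15 (adjusted p = 0.216), and none of these 3 passed. For Edar the 95% interval ran from -0.68 to -0.02 before adjustment.

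The weights were estimated without reaching limma's convergence tolerance and are then treated as known, which makes p-values too small. The calls of Eda2r and Tnfrsf19 held without control 3 (adjusted p = 0.0124 and 0.0299 with weights, called lower for 1.53% of all genes) and without control 3 and TGF-β1 3 (differences of -1.99 and -0.79, adjusted p = 0.0244 and 0.0406 unweighted, called lower for 1.45%). Without control 3 and without weights, no gene of the table passed, and Eda2r differed by -1.996 ± 0.286 (adjusted p = 0.211) and Tnfrsf19 by -0.71 ± 0.17 (adjusted p = 0.338). In the array-weighted fit both calls were lost without control 1, control 2, TGF-β1 1 or TGF-β1 2. That of Eda2r was also lost without TGF-β1 3, where its adjusted p was 0.0560 against 0.0334 for Tnfrsf19. The weights were estimated anew in each of these fits, and none gave control 3 alone the lowest control weight. Without control 1 or control 2 it shared the weight of the other control left, 0.150 or 0.145. Without a TGF-β1 array it had 0.116 to 0.161, above the 0.0118 to 0.0753 of control 2. These fits thus cannot show how far the calls depend on single arrays.

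**Figure D2:**
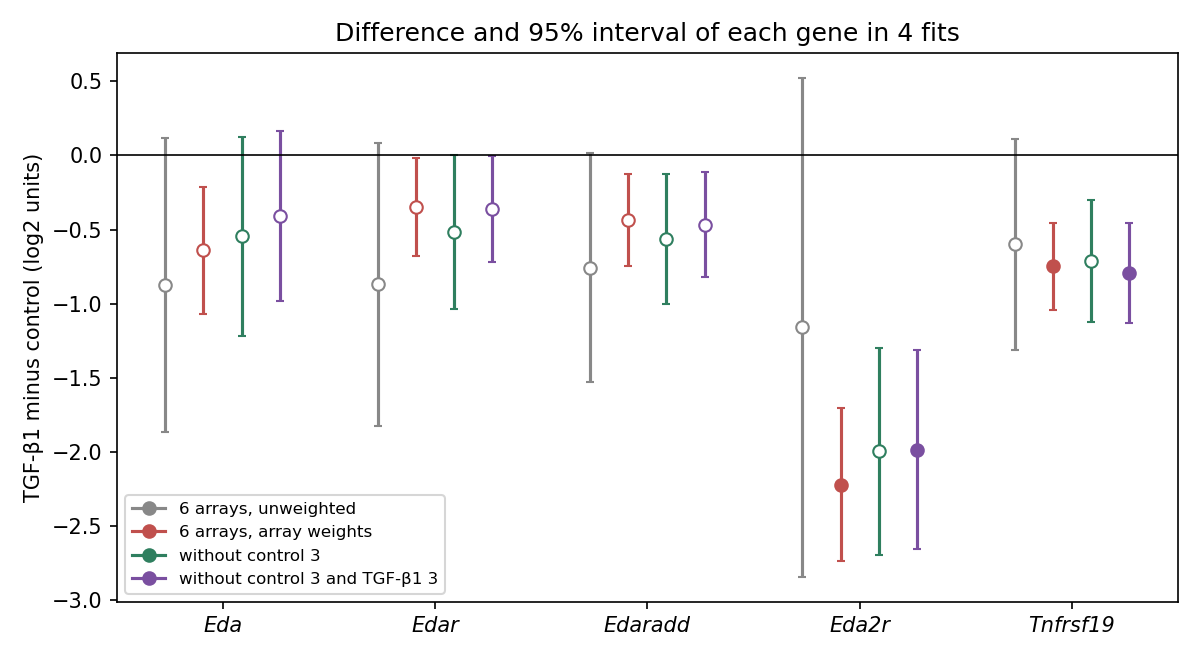
Difference between TGF-β1 and control arrays in log2 units (y axis) for each gene in 4 limma fits, with bars for the unadjusted 95% interval; filled points have an adjusted p under 0.05. Eda2r moves from -1.16 with all 6 arrays unweighted to about -2 in the other fits, while Edar moves towards 0, from -0.87 to -0.35 with weights.

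The promoters of the 4 genes that were lower in every TGF-β1 array than in controls 1 and 2 are shown, although Edar and Edaradd passed in no fit. Each window holds 250 bases before and 50 after a transcript start in RefSeq (GRCm38.p6), written 5′ to 3′ on the strand of the gene, and capitals mark each CAGAC, the core box that Smad proteins, the effectors of TGF-β, can bind.
Edar, chr10:58675647-58675946, minus strand: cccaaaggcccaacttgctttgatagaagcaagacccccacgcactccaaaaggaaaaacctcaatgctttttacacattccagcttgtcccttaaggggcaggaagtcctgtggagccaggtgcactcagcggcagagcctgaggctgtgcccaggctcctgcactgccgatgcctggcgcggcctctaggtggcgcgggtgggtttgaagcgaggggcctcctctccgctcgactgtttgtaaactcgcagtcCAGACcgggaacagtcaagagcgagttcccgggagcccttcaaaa
Edaradd, chr13:12520401-12520700, minus strand: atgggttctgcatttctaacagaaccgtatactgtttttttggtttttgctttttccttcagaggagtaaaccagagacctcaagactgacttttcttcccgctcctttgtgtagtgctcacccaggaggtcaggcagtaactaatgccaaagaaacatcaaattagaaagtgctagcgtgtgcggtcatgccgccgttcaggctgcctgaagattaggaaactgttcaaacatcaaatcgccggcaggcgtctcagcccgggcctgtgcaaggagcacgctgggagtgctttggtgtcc
Eda2r, chrX:97377160-97377459, minus strand: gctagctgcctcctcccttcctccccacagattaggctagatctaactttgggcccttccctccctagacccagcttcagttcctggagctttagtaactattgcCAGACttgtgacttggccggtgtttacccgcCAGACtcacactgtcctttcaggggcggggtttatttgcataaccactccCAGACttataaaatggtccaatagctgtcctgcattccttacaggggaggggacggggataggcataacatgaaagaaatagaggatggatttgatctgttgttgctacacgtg
Tnfrsf19, chr14:61046806-61047105, minus strand: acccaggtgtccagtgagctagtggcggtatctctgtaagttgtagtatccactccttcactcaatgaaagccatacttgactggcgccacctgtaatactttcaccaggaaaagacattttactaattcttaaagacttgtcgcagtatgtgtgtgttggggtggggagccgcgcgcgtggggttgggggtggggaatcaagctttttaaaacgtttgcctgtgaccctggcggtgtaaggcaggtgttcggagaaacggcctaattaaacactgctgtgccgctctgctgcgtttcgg
The CAGAC box, searched on both strands, was found 3 times in the Eda2r window, starting 145, 114 and 64 bases before the start, 1 time in the Edar window and 0 times in those of Edaradd and Tnfrsf19. RefSeq gives Tnfrsf19 a second start, whose window (chr14:61037938-61038237, minus strand) is not printed and holds 1 such box, 115 bases before that start. The RefSeq genes of Edaradd and Eda2r reach further upstream, to 12520535 and 97377234, than the starts used for their windows. Distances hold for the starts used. Of 32851 windows of the same length, 49.6% hold at least 1 such box. None of the 4 windows held the NF-κB consensus (found in 4.51% of windows), the p53 half-site (8.36%) or TGANTCA, the AP-1 site (7.81%), all searched on both strands, which says only that these letters are not in these windows.

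The list of the signalling cascade from furin to NF-κB held several genes that fell in the array-weighted fit, and none that rose. Of 20 measured genes from furin through TRAF and TAK1 proteins to NF-κB, 7 fell, 0 rose and 13 did not pass, where 3.44% of all genes fell and 3.45% rose. Rel, an NF-κB subunit, was at 7.85, 7.59 and 7.39 in the TGF-β1 arrays and at 9.33, 9.96 and 7.66 in the controls, and fell by 2.05 ± 0.20 (SE). Birc3, an inhibitor of apoptosis that binds TRAF proteins, fell by 1.62 ± 0.18, Nfkb2, the subunit of the non-canonical branch, fell by 1.16 ± 0.17 and Map3k14, the kinase of that branch, fell by 1.05 ± 0.15 (limma adjusted p = 2.31e-04 to 0.00260 for the 4 genes). The part of the cascade nearest to Edar did not pass: Traf6 differed by 0.08 ± 0.15 and Tab2, which links TRAF6 to TAK1, by 0.06 ± 0.19. Map3k7, which encodes TAK1, differed by -0.39 ± 0.17. Furin, which acts on the ligand and not below Edar, differed by -0.10 ± 0.15 and did not pass. The list's median difference was -0.34, against 0.01 over all genes. With weights without control 3, 6 of the 20 fell, where 1.53% of all genes fell. Without control 3 and TGF-β1 3, 5 of the 20 fell, where 1.45% of all genes fell. All of these were among the 7, and the fits share most of their arrays, so they are no separate support. The unweighted fit called 0 of the 20.

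Genes known as ectodysplasin targets included several that fell in the same fit. Of 15 measured, 5 fell, 0 rose and 10 did not pass, where 3.44% of all genes fell and 3.45% rose. Of the 5, 3 (Nfkb2, Nfkbia and Relb) also belong to the cascade list. Tnfaip3, the NF-κB inhibitor A20, was at 7.05, 6.68 and 7.18 in the TGF-β1 arrays and at 9.003, 9.30 and 7.43 in the controls, groups that did not overlap, and fell by 2.27 ± 0.17 (adjusted p = 8.69e-05). Nfkbia, which encodes the inhibitor IκBα, fell by 1.41 ± 0.22, and Relb, an NF-κB subunit, fell by 1.11 ± 0.17. The fifth, the chemokine Cxcl10, named after its value was seen, fell by 1.12 ± 0.21. These 5 respond to NF-κB in many tissues.

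The developmental targets of the pathway, named here after their values were seen, did not pass. Shh, a morphogen that acts after Edar in gland branching, was at 6.13, 6.39 and 5.92 in the TGF-β1 arrays and at 6.43, 6.22 and 7.43 in the controls, and differed by -0.07 ± 0.15 in the array-weighted fit (adjusted p = 0.858). Dkk4, a Wnt inhibitor, differed by 0.18 ± 0.20, Wnt10a by -0.16 ± 0.17 and Wnt10b by 0.18 ± 0.18. Foxi3, a transcription factor of ectodermal placodes, differed by 0.25 ± 0.16 and Fst, the activin antagonist follistatin, by -0.23 ± 0.17. Fst was bright, at 9.16 and 8.80 in controls 1 and 2. Shh, Dkk4, Wnt10a, Wnt10b and Foxi3 were dim, below the medians of 6.69 and 6.71 of those arrays. Foxi3, at 4.93 and 4.81, was below their lower quartiles of 5.11 and 5.13. A missing call does not show that such dim genes were unchanged. The list's other uncalled genes were Ccn2 (-0.17 ± 0.14), Madcam1 (-0.61 ± 0.23), Ltb (0.15 ± 0.17) and Cxcl11 (0.06 ± 0.15). Ccn2 was not dim, at 8.06 and 8.02 in controls 1 and 2. The median of all 15 was -0.17, against 0.01 over all genes. Without control 3 and TGF-β1 3, 4 of the 5 fallen genes passed, Relb not among them (adjusted p = 0.0753). With weights and without control 3, 4 passed as well, Cxcl10 not among them (adjusted p = 0.0505).

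Of the known regulators, Lef1, a Wnt effector that controls Eda, Trp63, an epithelial factor that controls Edar, and Inhba, the activin subunit gene that induces Edar in skin, were measured, and 0 of 3 passed. Inhba, which had the smallest p, was at 5.46, 5.67 and 6.99 in the TGF-β1 arrays and at 5.82, 6.04 and 6.81 in the controls, and differed by -0.37 ± 0.21 (adjusted p = 0.357).

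Eda2r stands among the p53 targets as well, and many of the 18 other such genes measured were lower. With array weights 10 of the 18 fell and 1 rose, where 3.44% of all genes fell and 3.45% rose. The median difference was -0.72, against 0.01 over all genes. The unweighted fit called 0 of the 18, with a median of -0.20 against -0.14 over all genes. Cdkn1a, which encodes the p21 inhibitor of cyclin-dependent kinases, fell by 2.59 ± 0.39 (SE) with weights and differed by -0.21 unweighted. Pmaip1, a pro-apoptotic protein, fell by 1.25 ± 0.20, Trp53inp1, a p53 cofactor, fell by 1.09 ± 0.19 and Plk3, a stress kinase, fell by 0.87 ± 0.15, while Sesn1, a sestrin, rose by 0.93 ± 0.17 (adjusted p = 0.00289 to 0.00734 for the 5 genes). With weights and without control 3, 6 genes fell and 1 rose, where 1.53% of all genes fell. Without control 3 and TGF-β1 3, 3 of the 18 fell and 1 rose, where 1.45% of all genes were called lower. Cdkn1a (limma adjusted p = 0.0274) was among the 3 and Sesn1 (adjusted p = 0.0347) was the 1 that rose. Pmaip1 (0.0544), Trp53inp1 (0.0886) and Plk3 (0.0575) did not pass there. Cdkn1a did not follow Eda2r on every array: in TGF-β1 3 it was at 10.95, near the 11.03 of control 1, while Eda2r was at 7.02 there.

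Other TNF family genes mostly did not pass. Of 15 other ligands, 1 fell and 0 rose in the array-weighted fit, where 3.44% of all genes fell. A single call in so short a list says little about the ligands. It was that of Tnf, which encodes TNF itself and fell by 1.02 ± 0.25 (limma adjusted p = 0.0288). The adjusted p of Tnf was 0.227 with weights without control 3, and 0.242 without control 3 and TGF-β1 3. Of 24 other receptors, 3 fell and 0 rose, beside the same 3.44% of all genes. Tnfrsf10b, a death receptor for TRAIL, fell by 0.96 ± 0.18, Fas, another death receptor, fell by 0.83 ± 0.17, and Tnfrsf12a, the TWEAK receptor, fell by 1.11 ± 0.27. Without control 3 and TGF-β1 3 the call of Fas was lost (adjusted p = 0.0669), and with weights without control 3 Tnfrsf10b alone of the 3 passed (adjusted p = 0.0366). In the unweighted fit Tnfrsf10b differed by 0.04 and Tnfrsf12a by 0.13, with no call. Tnfrsf10b and Fas are also p53 targets on the list above. The median differences were 0.02 for the ligands and -0.16 for the receptors. Among the TGF-β1 arrays Tnfrsf12a was at 10.37, 9.69 and 11.82, the last of them above the 11.34 and 11.36 of controls 1 and 2.

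**Figure D3:**
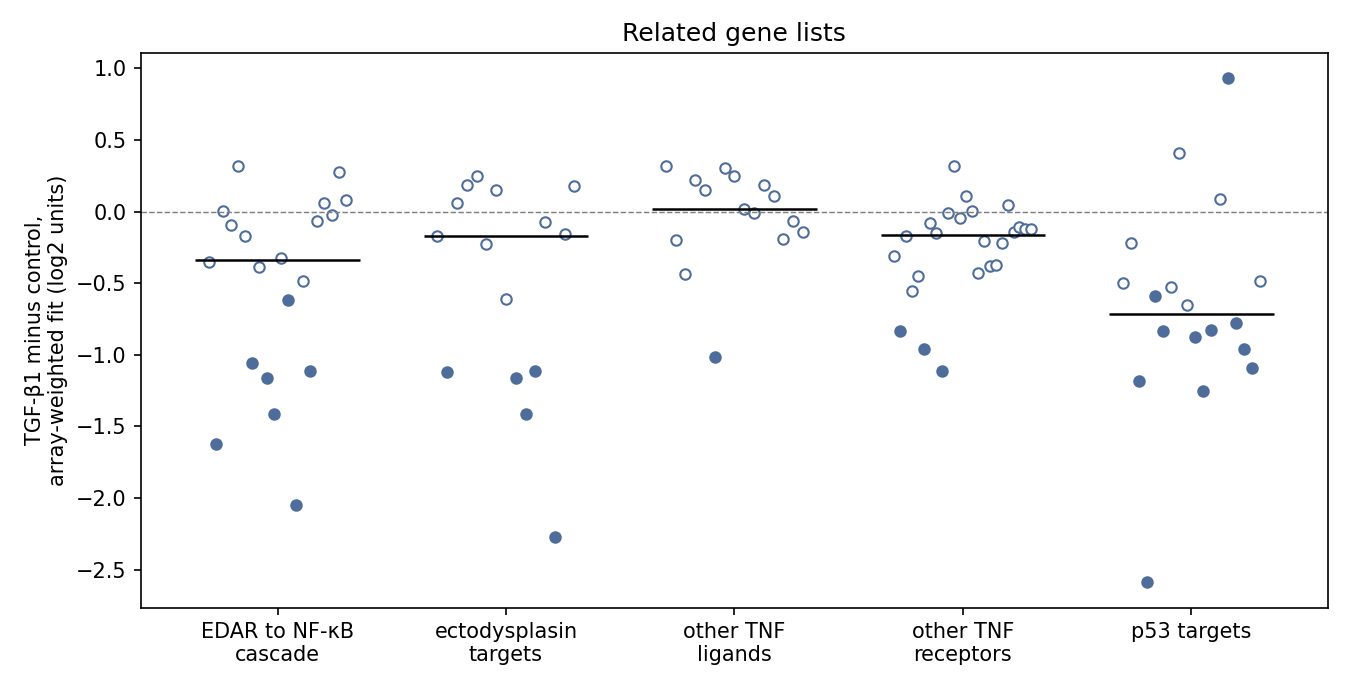
Difference between TGF-β1 and control arrays in the array-weighted fit, in log2 units (y axis), for every measured gene of 5 lists; filled points have an adjusted p under 0.05 and lines mark list medians. In the first 4 lists every filled point is below 0, and among the p53 targets 10 are below and 1, Sesn1, is above.

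Epithelial markers, from the tissue that makes Edar, were higher in part, while Edar and Edaradd themselves passed in no fit. With array weights, 6 of the 12 salivary epithelial markers rose and 0 fell, while 6 did not pass. In that fit 3.45% of all genes rose. Aqp5, the apical water channel, rose by 1.09 ± 0.13 (adjusted p = 0.00103) and Epcam, an epithelial adhesion molecule, by 1.01 ± 0.20 (adjusted p = 0.0109). The markers that rose numbered 3 with weights without control 3, where 245 of 19505 genes rose. They numbered 3 without control 3 and TGF-β1 3, where 223 of 19505 rose, and 0 in the unweighted fit. Without both arrays Aqp5 passed (adjusted p = 0.0224) and Epcam did not (adjusted p = 0.124). The log2 of the summed linear values of the list was 14.46 to 14.82 in the TGF-β1 arrays, against 14.19, 13.77 and 12.08 in controls 1, 2 and 3. The basal keratins Krt5 and Krt14 differed by -0.49 ± 0.21 and -0.59 ± 0.24, and Krt19 by -0.56 ± 0.36, and did not pass. The other uncalled markers, Cdh1, Krt8 and Krt18, differed by 0.69 ± 0.23, 0.52 ± 0.19 and 0.39 ± 0.23.

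Mesenchymal markers, from the tissue that makes Eda, gave 0 risen and 1 fallen of 8 with array weights, where 3.44% of all genes fell. Their median difference in that fit was -0.44, against 0.01 over all genes. Dropping both control 3 and TGF-β1 3 gave a median of -0.41, against 0.01. In the unweighted fit of 6 arrays the median was 0.19, against -0.14 over all genes. The fallen marker was Twist1, a transcription factor, which differed by 0.03 unweighted. It lost the call with weights without control 3 (limma adjusted p = 0.0837) and without control 3 and TGF-β1 3 (adjusted p = 0.0716). The summed level of the markers was 13.11 to 13.78 in the TGF-β1 arrays, against 13.61, 13.90 and 11.03 in controls 1, 2 and 3. Skeletal muscle markers, of a tissue known for Eda2r, gave 0 called of 6, with a median difference of 0.01. The part of these cell types in the differences of the 5 genes was not tested.

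**Figure D4:**
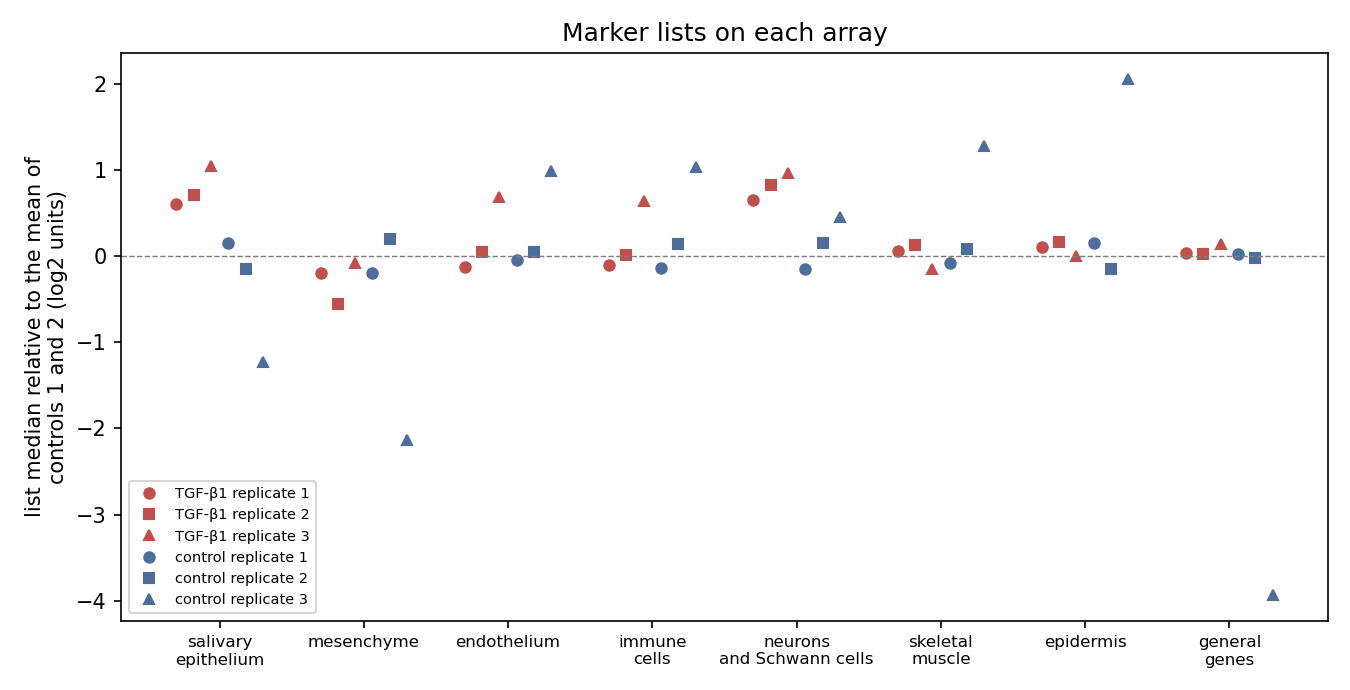
Median of each marker list on each array relative to the mean of controls 1 and 2, in log2 units (y axis), with TGF-β1 arrays in red and controls in blue. The epithelial list is at 0.60 to 1.04 in the TGF-β1 arrays and at -1.23 in control 3, whose general genes are at -3.93.

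The genes most like Eda and Eda2r were sought among 17365 named genes by the root mean square distance between centred log2 profiles over the 5 arrays without control 3; the other 3 genes spanned less than 1 log2 unit there, and their nearest genes are not named. Nearest to Eda2r were Il17ra, the interleukin 17 receptor, at a distance of 0.24, Lrrtm4, a synaptic adhesion protein, at 0.29, and Gem, a small GTPase, at 0.29. Il17ra was at 7.86, 8.14 and 8.18 in the TGF-β1 arrays and at 9.74, 9.92 and 6.70 in the controls, control 3 again below the TGF-β1 arrays. Nearest to Eda were Tspan18, a tetraspanin, at 0.067, Ets1, a transcription factor, at 0.078, and Amhr2, the receptor of anti-Müllerian hormone, at 0.084. With all 6 arrays 1 of the 3 genes was shared for each, Gem for Eda2r and Amhr2 for Eda.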

How the data were processed

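The 6 arrays were grouped by their labels, 3 with TGF-β1 and 3 controls. The authors deposited 1 log2 value per probe set and array, RMA being the method in the submitters' processing notes, with no version or genome build. Biotin-labelled cRNA came from 6 µg of total RNA, per the labels' protocols. Arrays carry no read depth; their number limits precision.

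Of 22206 probe sets, 19572 had 1 gene symbol in the platform annotation, 0 several and 2634 none; the brightest stood for a gene, leaving 19505, all matched by Entrez identifier to RefSeq (GRCm38.p6), whose coordinates and promoters were used. Values were compared as deposited with limma 3.58.1 in R 4.3.3, two-sided, with Benjamini-Hochberg adjustment over all genes and a threshold of 0.05. Gene lists are described by counts and medians, with no set test. The members and lists were chosen with earlier results of these data known. Named list genes are those that passed in the array-weighted fit, up to 4 per list and direction by p, or the 1 of smallest p; other genes were named after their values were seen. Retired symbols listed beside current ones count as not measured.

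Alternatives were array weights, arrays left out, quantile normalization, median centring, a filter on dim genes, the mean of probe sets, single probe sets, a trended robust prior and the replicate number as a block.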

Additional observations from a re-analysis of the deposited data

How the results depend on the processing

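The difference of each of the 5 genes stayed below 0 in every alternative run. There were 20 for Eda, which the filter on dim genes removed, and 21 for each of the others. Several could not change the difference: the mean of probe sets, single probe sets, the trended prior, the block and the filter left it unchanged. For Edar, Edaradd and Tnfrsf19, whose groups did not overlap, leaving out or weighting arrays could not change the sign. The difference ranged from -1.21 to -0.10 for Eda, -1.12 to -0.35 for Edar, -0.95 to -0.44 for Edaradd, -2.22 to -0.57 for Eda2r and -0.84 to -0.52 for Tnfrsf19. Against no call in the unweighted fit, Eda2r passed with array weights (-2.22), with weights without control 3 (-2.09) and without control 3 and TGF-β1 3 (-1.99); Tnfrsf19 passed in the same fits (-0.75, -0.77 and -0.79) and with weights without TGF-β1 3 (-0.84). Leaving out 1 array with weights gave -2.09 to -0.65 for Eda2r and -0.84 to -0.58 for Tnfrsf19. This was planned for control 3 and added after the data were seen for the other 5 arrays. In the 5 added fits control 3 was weighted as much as another control or more. Their calls thus cannot show dependence on single arrays. In the added fit without TGF-β1 3, control 1 had a weight of 6.90, against 0.0118 for control 2 and 0.116 for control 3. The Tnfrsf19 call of that fit thus rests on nearly 1 control array. Weights of the added fits without a TGF-β1 array also missed limma's tolerance. Leaving out 1 array unweighted gave -1.996 to -0.57 for Eda2r and -0.71 to -0.52 for Tnfrsf19.

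Genes called numbered 0 unweighted, 1342 with weights, 505 without control 3 and TGF-β1 3, and with weights 0 without control 1 or control 2, 8 without TGF-β1 1, 12 without TGF-β1 2, 375 without TGF-β1 3 and 544 without control 3. In the same 3 fits (weights, weights without control 3, and without both arrays) the calls were 7, 6 and 5 in the cascade, 5, 4 and 4 among ectodysplasin targets, 1, 0 and 0 among other ligands, 3, 1 and 2 among other receptors and 11, 7 and 4 among p53 targets; unweighted, each was 0, also with any 1 array left out. With the replicate block, 0 genes were called and Eda2r differed by -1.16 ± 0.62 (SE). Deviations of same-numbered arrays from their group means correlated at -0.07, -0.01 and -0.05. With 3 arrays per group and control 3 apart, such values cannot show whether same-numbered arrays were paired. Without a background measure, the size of a difference of the dim gene Eda is uncertain. The smallest distance in the likeness search was 0.10 for Eda and 0.27 for Eda2r with all 6 arrays, and by Pearson correlation 0 of the 3 genes were shared for each.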

Other observations

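Neuronal genes were measured as a list of cells a cultured gland can carry. Of 5 neuron and Schwann cell markers, 4 rose in the array-weighted limma fit and 0 fell, where 3.45% of all genes rose. Ret, the receptor tyrosine kinase for ligands of the glial-derived neurotrophic factor family, was at 8.18, 8.10 and 8.32 in the TGF-β1 arrays and at 7.25, 7.45 and 7.80 in the controls, groups that did not overlap, and rose by 0.77 ± 0.14 (SE, adjusted p = 0.00706). Tubb3, a neuronal tubulin, rose by 0.66 ± 0.16, Stmn2, a stathmin of growing neurites, by 0.72 ± 0.18, and Elavl4, a neuronal RNA-binding protein, by 0.65 ± 0.15. Without control 3 and TGF-β1 3, Ret was the 1 of the 4 that passed (adjusted p = 0.0468), as with weights without control 3 (adjusted p = 0.0291), and 0 of 5 passed in the unweighted fit. Kdr, a receptor of endothelial growth factor, was the 1 of 6 endothelial markers that passed in the array-weighted fit. It fell by 1.35 ± 0.19, in a fit where 3.44% of all genes fell. Of the immune markers, 0 of 5 passed.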
